A study of Mus musculus with 18 samples.

Results

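Accessible chromatin regions were counted gene by gene and chromosome by chromosome in 2 peak lists, from burst-forming unit erythroid cells (BFU-E) of steady-state mouse bone marrow and from stress BFU-E of the regenerating spleen. All 18139 genes named in either list were counted, over 35142 marrow (BM) peaks and 61661 stress peaks. Rows with the same chromosome, start and end were treated as 1 peak, and each peak was given to the gene whose start site the authors' annotation listed as nearest. Of these genes, 15089 had a peak in both lists, 2748 only in the stress list and 302 only in the BM list. The 2334 genes with at least 10 peaks over both lists were compared with the overall ratio of the list lengths.

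The stress cells were sorted from spleens at day 8 after lethal irradiation and a transplant of unfractionated bone marrow, and the BM cells from unperturbed marrow, both on the B6SJL background. Mature cells (positive for Ter-119, Gr-1, B220, CD4 or CD8) were depleted first, and both populations were sorted with antibodies against CD71, CD9, CD24a, CD150, CD133, c-Kit and Sca1, and the samples are titled Sca-negative. Each population had 3 ATAC-seq libraries (transposase tagging of accessible DNA) and 3 RNA-seq libraries. Tissue of origin, irradiation and transplantation differ together between the populations and cannot be told apart. The labels do not say whether libraries came from separate animals, so any p-value below measures the spread between these samples.

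BFU-E are early progenitors committed to red cells, and respond to erythropoietin, stem cell factor and glucocorticoids. In mice, recovery from anaemia or transplantation draws on stress progenitors that home to and expand in the spleen, where BMP4, hedgehog and stem cell factor signals act on them. Open chromatin marks promoters and distal enhancers, and erythroid enhancers are typically bound by GATA1 or GATA2 with TAL1, LMO2 and LDB1. A gene's number of peaks therefore reflects how many candidate regulatory elements the assay resolved near it, which also depends on the size of the surrounding intergenic space and on the depth behind the list.

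The stress list was 1.755 times as long as the BM list, so a stress share of 63.7% of a gene's peaks is the overall value. Almost every BM peak had a stress counterpart: 33552 of 35142 BM peaks (95.48%) overlapped a stress peak by at least 1 base, whereas 33921 of 61661 stress peaks (55.01%) overlapped a BM peak. The 27740 other stress peaks had a median score of 736 against 1000 for the overlapping ones, were 448 against 768 bases wide at the median, and lay within 1 kb of a start site in 8.627% against 34.6% of cases. The authors' score, which runs from 415 to 1000, reached its ceiling in 49.24% of stress peaks and 30.42% of BM peaks. The 3 libraries of each population are merged in 1 list, so peak counts carry no replicate error, and sequencing depth of the ATAC-seq is not given in the sources used here. Exact (Clopper-Pearson) 95% binomial intervals below cover counting error only, and treat each peak as an independent draw. Most BM peaks overlap a stress peak, so the 2 counts of a gene, list or chromosome are not independent. An interval that includes the overall value therefore does not show that a ratio equals it.

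For each gene the relative peak ratio was computed as stress peaks plus 0.5 over BM peaks plus 0.5, divided by 1.755. Its median over the 2334 genes was 0.9499, with 5th and 95th percentiles of 0.570 and 1.71. More stress than BM peaks were counted for 2203 of these genes, equal numbers for 113 and more BM than stress peaks for 18. The added stress peaks were thus spread over nearly all peak-rich genes. A relative ratio of 2 or more was found for 52 genes (2.23% of those compared) and of 0.5 or less for 15 (0.643%).

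**Figure D1:**
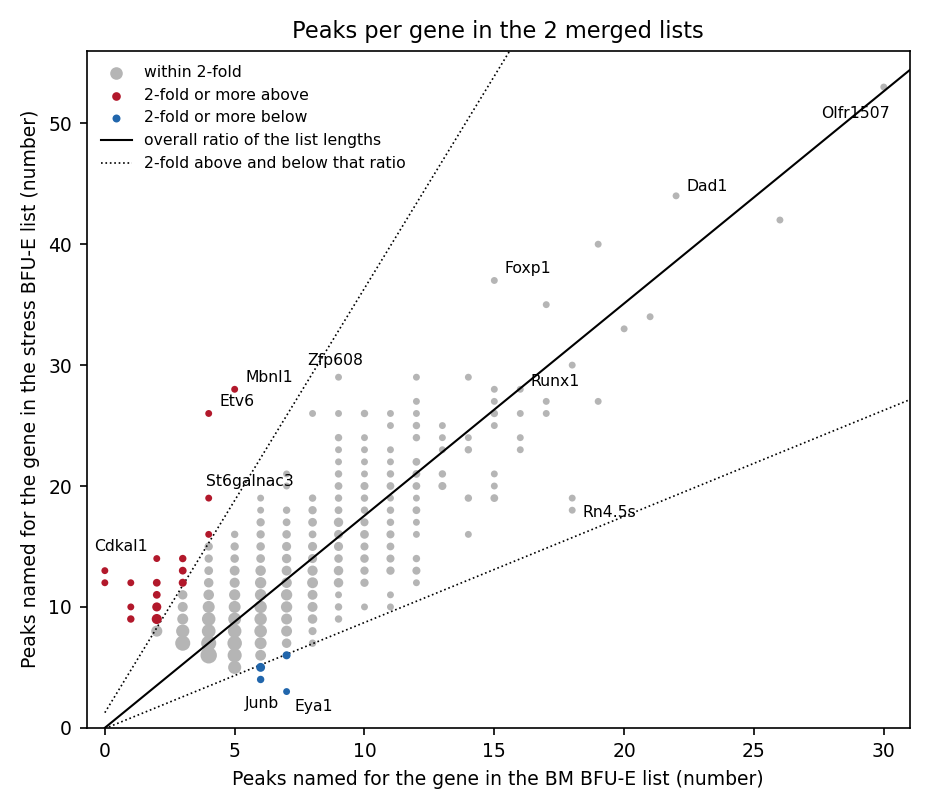
Each point is a pair of counts, with the BM peaks of a gene on the x axis and its stress peaks on the y axis, for the 2334 genes with at least 10 peaks; point size grows with the number of genes at that position. Red points (52 genes) lie 2-fold or more above the overall ratio drawn as the solid line, and blue points (15 genes) 2-fold or more below it.

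The sequences of 5 regions are examples of peaks present in only 1 of the lists, for 3 genes above and 2 below the overall ratio. Each had the highest score among such peaks of its gene outside exons and transcript ends, and the first by position was taken where scores tied, since St6galnac3, Spred1 and Arhgef10l had 4, 3 and 2 unshared stress peaks at 1000. They are not typical, as 14.87% of all unshared stress peaks reached that score. Each was cut to 300 bases around its centre where longer (mm10, plus strand, from the RefSeq GRCm38.p6 genome). Capitals mark 3 patterns, each searched on both strands. The GATA-factor motif was AGATAA, shown as its reverse complement where it lies on the other strand. The AP-1 motif was TGANTCA. The repeat pattern was CTCGCTCGCTCG, which is 3 copies of a 4-base unit. The St6galnac3 window is chr3:153689919-153690218, in intron 1 of 4, 35.1 kb downstream of the start site. The Spred1 window, chr2:117018331-117018630, is intergenic and 102.6 kb upstream (listed as -102.6 kb). The Arhgef10l window is chr4:140661504-140661803 in intron 1 of 28, 4.2 kb downstream.
St6galnac3: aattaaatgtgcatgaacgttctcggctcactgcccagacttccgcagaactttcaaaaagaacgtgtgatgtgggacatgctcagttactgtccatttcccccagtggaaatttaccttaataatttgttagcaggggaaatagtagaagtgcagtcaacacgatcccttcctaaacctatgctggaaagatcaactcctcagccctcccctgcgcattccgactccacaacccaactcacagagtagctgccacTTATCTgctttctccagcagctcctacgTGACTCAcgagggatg
Spred1: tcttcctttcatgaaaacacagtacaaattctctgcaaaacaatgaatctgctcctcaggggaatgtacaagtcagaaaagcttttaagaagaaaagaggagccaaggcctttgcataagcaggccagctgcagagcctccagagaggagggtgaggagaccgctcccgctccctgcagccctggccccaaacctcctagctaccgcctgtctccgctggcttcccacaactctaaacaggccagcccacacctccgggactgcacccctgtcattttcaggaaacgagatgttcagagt
Arhgef10l: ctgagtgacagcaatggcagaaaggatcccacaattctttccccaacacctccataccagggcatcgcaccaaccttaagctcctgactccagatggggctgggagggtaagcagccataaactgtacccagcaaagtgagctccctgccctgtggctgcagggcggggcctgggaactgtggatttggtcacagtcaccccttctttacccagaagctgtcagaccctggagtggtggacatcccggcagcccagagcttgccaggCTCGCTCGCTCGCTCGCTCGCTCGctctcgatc

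The BM-only windows are chr2:6219609-6219787 for Echdc3 (the whole 179-base peak, in an intron of a noncoding transcript) and chr5:35142911-35143210 for Lrpap1 (intergenic). Their scores were 942 and 648, while the 3 stress windows each scored 1000.
Echdc3: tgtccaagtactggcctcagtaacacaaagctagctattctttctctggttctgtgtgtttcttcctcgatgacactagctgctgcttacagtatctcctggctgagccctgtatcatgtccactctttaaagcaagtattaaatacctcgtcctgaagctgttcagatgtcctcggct
Lrpap1: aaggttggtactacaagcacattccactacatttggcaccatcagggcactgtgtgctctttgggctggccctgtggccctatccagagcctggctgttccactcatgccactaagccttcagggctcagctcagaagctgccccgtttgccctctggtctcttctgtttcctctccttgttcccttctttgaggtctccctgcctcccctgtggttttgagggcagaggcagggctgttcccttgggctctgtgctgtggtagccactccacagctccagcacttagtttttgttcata

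Of the 5 windows, 1 held a GATA motif, the St6galnac3 intron, which also held an AP-1 motif. Among 300-base windows at the centre of peaks, AGATAA was found in 13.66% of all BM peaks and 16.17% of all stress peaks. Among distal stress peaks (over 1 kb from a start site) it was found in 20.38% (19.89 to 20.88%) of those absent from the BM list and 18.69% (18.18 to 19.21%) of those shared with it. The stress peaks of the 52 genes above the ratio that had no BM counterpart, promoter peaks included, held it in 21.4% (17.73 to 25.44%) of 458 windows. That interval includes the 20.38% of distal stress peaks absent from the BM list, a set without promoter peaks. A CTCG run was found in 0.1476% of all stress peaks and in 3.361% of the 595 stress peaks of the 52 genes, but 19 of those 20 windows lay in a single 5S ribosomal RNA gene array on chromosome 8. Outside it, 1 of 576 windows of the 52 genes (0.174%) held the run, against 0.0990% of all stress peaks. That 1 window is the Arhgef10l example printed above. A match to these letters is not evidence of binding.

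Some genes above the ratio stayed at 2 or more in nearly all processing settings. Among them were a sialyltransferase gene, an inhibitor of RAS signalling and a guanine nucleotide exchange factor gene. Settings were counted where they left at least 5 peaks, and changes of the minimum number of peaks were not counted. Foxa2 and Stk39 also stayed there in 11 of 12 settings each. St6galnac3, a sialyltransferase that modifies glycolipids and glycoproteins, had 4 BM peaks and 19 stress peaks, a relative ratio of 2.47, and 82.61% of its peaks in the stress list (61.22 to 95.05%). Of its stress peaks 18 lay inside the gene (chr3:153198274-153725133, minus strand), 15 had no BM counterpart and 4 of those 15 scored 1000. Its ratio was at least 2 in each of 12 settings that gave it a value (2.11 to 3.70). Spred1, an inhibitor of RAS and MAP kinase signalling downstream of receptors such as KIT, had 2 BM and 11 stress peaks (relative ratio 2.62). Only 4 of its 11 stress peaks lay inside the gene (chr2:117121071-117182279, plus strand), and the other 7 were upstream and outside any protein-coding gene. It stayed at 2 or more in 11 of 12 settings. Arhgef10l, a guanine nucleotide exchange factor, had 1 BM and 10 stress peaks (3.99), of which 8 were inside the gene and 9 had no BM counterpart, and it stayed at 2 or more in all 10 settings that gave it a value.

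**Figure D2:**
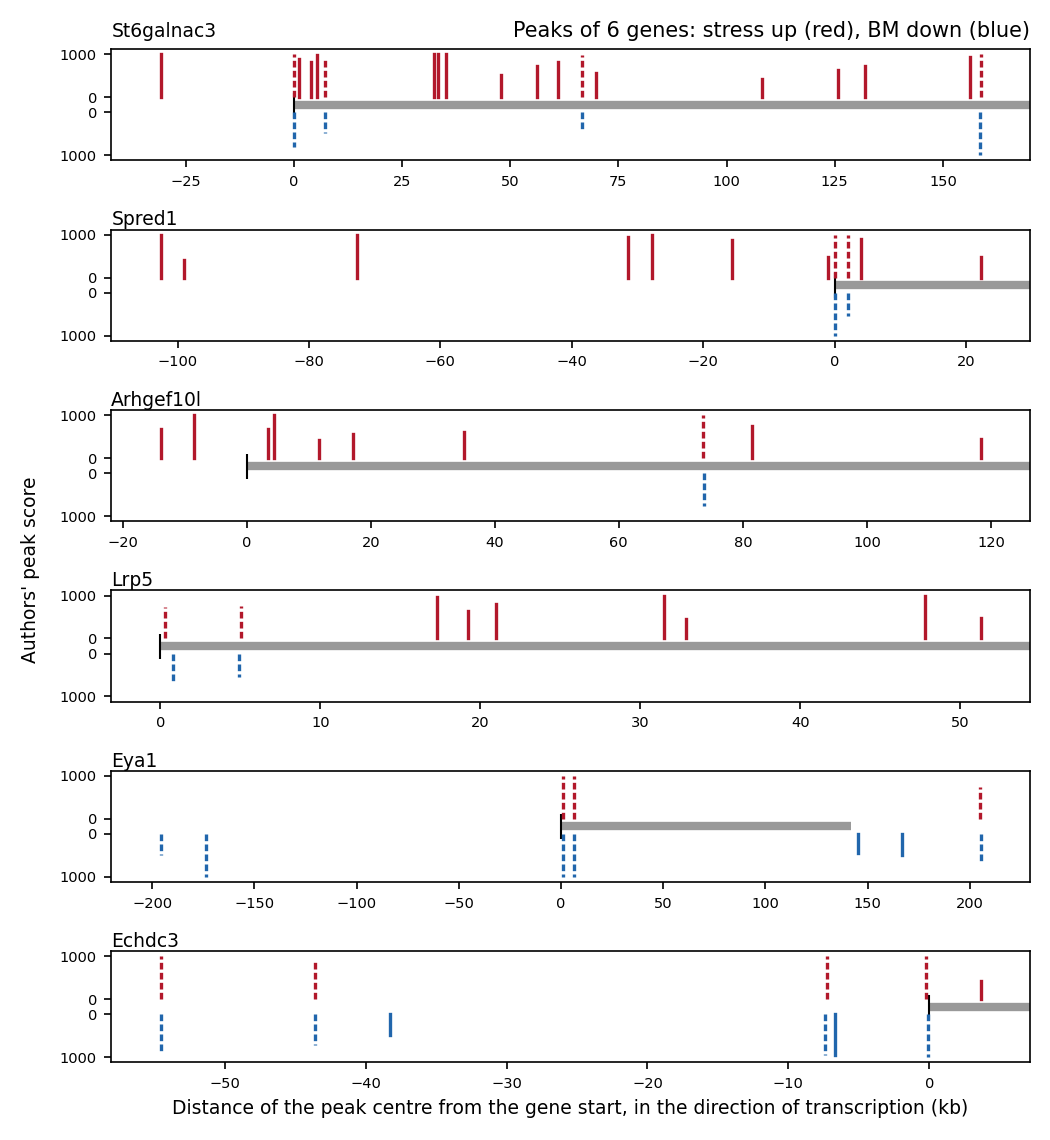
Peaks of 6 genes are drawn by distance of the peak centre from the gene start (x axis, kb, in the direction of transcription) with the authors' score as line height (stress upward in red, BM downward in blue; dashed lines overlap a peak of the other list, solid lines do not, and the grey bar is the gene). St6galnac3 and Lrp5 carry solid red lines along the gene, Spred1 mostly upstream of it, and Eya1 and Echdc3 each have 2 solid blue lines.

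Further genes above the ratio encode receptors and signalling proteins. Lrp5, a WNT co-receptor, had 2 BM and 9 stress peaks (2.17), and all 9 lay inside the gene (chr19:3584825-3686585). Stk39, a kinase that regulates cation-chloride cotransporters, had 2 and 10 (2.39), all inside the gene. Epha2, an ephrin receptor tyrosine kinase, and Ksr1, a scaffold of the RAF and MEK kinases, each had 2 and 9 (2.17). Plcg1 (phospholipase C gamma), Gna12 (a G protein alpha subunit) and Bmper (a BMP-binding regulator) each had 3 and 12, just inside the threshold at 2.04. Just outside it, at 1.96, were Rabgap1l, Dach1, Ece1, Cdc7 and Dock9 with 4 and 15 each.

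Transcription factor genes above the ratio included several of non-haematopoietic development. Foxa2, an endodermal pioneer factor, and Irx3 each had 2 BM and 10 stress peaks (2.39), Barhl2 and Sall3 each had 2 and 9 (2.17), and Nfib had 4 and 16 (2.09). By nearest RefSeq start site Foxa2 and Irx3 kept these counts, while Nfib had 3 and 9 (1.55), Barhl2 1 and 7 and Sall3 0 and 3. Mean RNA levels of these 5 genes were 0 RPKM in BM BFU-E, and at most 0.001667 RPKM in stress BFU-E (Nfib). Of the 10 stress peaks named for Foxa2, 9 lay outside any protein-coding gene, 8 had no BM counterpart, and 4 of those 8 scored 1000 (median 983.5). Grik4, a kainate receptor subunit, had 3 and 13 peaks (2.20), 12 of the 13 inside the gene, with 0 RPKM in both populations. Rxra (the retinoid X receptor alpha, 2 and 9) and Foxk1 (a forkhead factor, 3 and 13) had detectable RNA, with means of 1.34 and 0.403 RPKM for Rxra and 7.32 and 8.66 for Foxk1 in BM and stress.

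As a group, the 52 genes had 114 BM and 595 stress peaks, and the 2267 genes between the thresholds 12717 and 22072. Because the ratio chose the groups, these properties are a description. Only 23.03% of the 595 stress peaks overlapped a BM peak, against 55.62% for the genes between the thresholds and 92% for the 15 below. Median distance to the start site was 42.04 kb, 29.84 kb and 26.21 kb in the same order, and the share within 1 kb of a start site 8.067%, 10.48% and 18.67%. Mean RPKM was under 1 in both populations for 27 of the 52 genes (51.92%), for 31.21% of those between and for 6 of the 15 (40%). The calls sat among genes near the minimum of 10 peaks: 38 of the 52 and all 15 of those below had 10 to 14 peaks, and 2 of the 52 had 30 or more. Of the 52 genes, 20 stayed called when only peaks scoring at least 540 were counted in both lists, and 3 at 830. With the stress list cut to the BM length by score, 7 of the 52 and 1 of the 15 stayed called.

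The peak-richest calls, Etv6 and Mbnl1, depended on how a peak received its name. Etv6, an ETS-family repressor needed by marrow stem cells, had 4 BM and 26 stress peaks (3.36), Mbnl1, an RNA splicing regulator, 5 and 28 (2.95), and Cdkal1, a tRNA-modifying enzyme, 0 and 13, at least 2.47-fold above the overall ratio against a floor of 3 BM peaks. In the deposited annotation 1210 BM peaks (3.44%) and 2246 stress peaks (3.64%) have an empty gene name although a nearest transcript is listed, and 1202 and 2235 of these transcripts have a symbol in RefSeq. With those names filled, an alternative chosen after seeing the data, Etv6 had 14 and 29 peaks (1.16), Mbnl1 11 and 28 (1.41) and Cdkal1 9 and 14 (0.870), and none of the 3 was called. Filling the names left 51 genes above (2.08% of 2456) and 16 below (0.651%), among them 49 of the 52 and all 15. Giving every peak to the nearest RefSeq start site left 48 above (2.08% of 2311) and 16 below (0.692%), with 34 of the 52 and 9 of the 15 among them. Similarly Prkcb went from 9 BM and 0 stress peaks to 9 and 13, Ggta1 from 6 and 0 to 6 and 10, and Prdx6 from 5 and 0 to 7 and 7.

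Several names above the ratio stand for peaks inside a neighbouring gene. For Lactbl1 (1 and 9), 7 of the 9 stress peaks lay inside Ephb2, an ephrin receptor gene. For Pcp4, 8 of 10 lay inside Dscam, a neuronal adhesion gene that was itself above the ratio (2 and 9). For Snx11, 7 of 9 lay inside Skap1, a T-cell adaptor gene, and for the microRNA gene Mir7223 all 9 lay inside Prkca, a protein kinase C gene. Across the 52 genes, only spans of protein-coding RefSeq genes were counted. By these, 236 of 595 stress peaks lay inside the gene they were named for and 71 (11.93%) inside another gene only. The other 288 lay outside such spans, which includes any peaks inside noncoding genes alone. When peaks were instead counted inside protein-coding RefSeq gene spans, also chosen after seeing the data, 39 of 1201 genes were above (3.25%) and 14 below (1.17%). The 39 lay at 27 separate loci, since 13 of them are overlapping spans of the protocadherin clusters on chromosome 18 that share the same peaks, at most 5 BM and 23 stress. By that count Dscam had 2 BM and 14 stress peaks, Dock9 2 and 17, Ephb2 4 and 16, Mgat5 (an N-glycan branching enzyme) 6 and 23, and Tcf7l2 (a WNT-responsive transcription factor) 3 and 12. The 6 genes above by both counts were Dscam, Stk39, Lrp5, Plcg1, St6galnac3 and Grik4.

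A repeated gene array on chromosome 8 held few BM and many stress peaks. In an interval of 88.96 kb that spans the 51 annotated 5S ribosomal RNA genes with 2000 bases on either side, there were 3 BM peaks and 30 stress peaks, a stress share of 90.91% (75.67 to 98.08%) and a relative ratio of 5.70. These carried the names Gm25018 (0 and 12), Rhou, Gm26391, Gm23284 and Gm25212. Of them, 1 BM and 14 stress peaks were annotated to a CTCG simple repeat or a 5S repeat, which were counted together. Rhou, a small GTPase gene next to the array, had 2 BM and 11 stress peaks with mean RPKM of 0.323 and 0.00867. How reads that match several copies were handled is not given in the sources used here. Other arrays with many peaks had nearly equal counts: Mir101c, whose peaks all lie on satellite repeats at chr9:3002024-3033079, had 18 and 19, and Rn4.5s at chr6:47636304-47772515 had 18 and 18, relative ratios of 0.601 and 0.570.

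Genes below the ratio numbered 15, with 6 or 7 BM peaks each and 3 to 6 stress peaks. Eya1, a transcriptional coactivator and phosphatase of organ development, had 7 BM and 3 stress peaks (0.266), the lowest value of any gene compared, and 0.418 with 7 and 5 peaks after names were filled. Junb, an AP-1 subunit and immediate early gene, had 6 and 4 (0.395), the 6 BM peaks lying within 6.832 kb. Acvr2a, an activin and BMP type II receptor, Man1a, a mannosidase of N-glycan processing, Echdc3, Lrpap1 (a chaperone of LDL receptor family proteins), Mrpl44 (a mitochondrial ribosomal protein) and Fam175b each had 6 and 5 (0.482). For Acvr2a, 5 of the 6 BM peaks, which spanned 1323 kb, and all 5 stress peaks lay outside any protein-coding gene. By nearest RefSeq start site it had 2 and 1. For Mrpl44, 4 of the 6 BM and 3 of the 5 stress peaks lay inside another gene. Kcnh2 (a potassium channel), Fabp12 and Gpc5 (a glypican) had 7 and 6 (0.494). Just outside were Ryk and Ddx11 with 8 and 7 (0.503). These genes' peaks were mostly shared: 77 of their 95 BM peaks (81.05%) overlapped a stress peak, against 95.37% for the genes between the thresholds. No interval of a gene below the ratio excluded the overall share. Among all 2334 genes compared the interval did so for 5, all above the ratio, which were Cdkal1, Gm25018, Gm572 (1 and 12), Etv6 and Mbnl1. Of these, Cdkal1, Etv6 and Mbnl1 were not called with names filled, and the peaks of Gm25018 lie in the 5S array.

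Smaller genes with peaks in only 1 list were not compared by ratio. F13a1, which encodes the A subunit of coagulation factor XIII and marks monocytes, macrophages and megakaryocytes, had 0 BM and 7 stress peaks, at least 1.33-fold above the overall ratio against a floor of 3 peaks. F13a1 RNA went the other way, at 213, 380 and 389 CPM (counts scaled to library size) in the BM libraries and 37.6, 24.6 and 30.7 in the stress libraries. The groups did not overlap, and edgeR gave a log2 fold change of -3.40 (SE 0.30, adjusted p = 0.0205). Hrh1, a histamine receptor gene, had 0 and 8 peaks, at least 1.52-fold above, and mean RPKM of 0.822 and 0.0223.

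The genes with the most peaks followed the overall ratio. Olfr1507 led both lists with 30 BM and 53 stress peaks (1.00), followed in the stress list by Dad1 (22 and 44, 1.13) and Mir6388 (26 and 42, 0.914). These names stand largely for antigen receptor loci, since Olfr1507 and Dad1 flank the T-cell receptor alpha and delta genes and Mir6388 lies in the immunoglobulin heavy-chain locus. The next in the stress list were Adgrl2 (an adhesion receptor) with 19 and 40, Foxp1 (a forkhead repressor) with 15 and 37 (1.38), Elmo1 (an adaptor for engulfment and cell movement) with 21 and 34, Klhl25 with 20 and 33, and Nav2 with 18 and 30. Then came 3 genes with 29 stress peaks each, of which Zfp608 had 9 BM peaks (1.77, short of the threshold), Med13l (a subunit of the Mediator kinase module) 12 and Pik3r1 (the regulatory subunit of PI3 kinase) 14. Runx1, a core-binding factor of blood stem cells from the stem and progenitor list, had 16 and 28 (0.984).

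The 6 antigen receptor loci together held 125 BM and 234 stress peaks, a relative ratio of 1.07 (0.855 to 1.337). The heavy-chain locus Igh (chr12:113254830-116010093) held 58 and 96 peaks, which is 21.05 and 34.84 per Mb against 12.89 and 22.62 for the genome, and 48 and 68 of them lay on variable segments. The T-cell receptor alpha and delta locus (chr14:52427928-54224206) held 49 and 93, and the beta locus (chr6:40891229-41558452) 10 and 27 (1.54, 0.722 to 3.563). Igk held 4 and 10 over 3171 kb, Tcrg 4 and 8, and Igl no peak in either list. Among defining B-cell genes, 6 of 15 markers (Pax5, Ms4a1, Blnk, Blk, Rag1 and Pou2af1) were listed at 0 RPKM in every library. Among T and NK cell genes 8 of 22 were, Cd3e and Cd3g included. Summed over all members, the B-cell markers reached 5.35 to 10.98 RPKM in the BM libraries and 3.21 to 4.59 in the stress libraries, and the T and NK markers 27.3 to 69.5 and 39.1 to 55.4, of which Nkg7 (a granule gene of cytotoxic cells) gave means of 41.3 and 39.0.

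Erythroid genes gained peaks at about the overall rate or below it. The 20 erythroid transcription regulators, of which 11 had at least 10 peaks, held 101 BM and 168 stress peaks, a relative ratio of 0.948 (0.736 to 1.226), and 0 of the 11 passed 2-fold in either direction, where 2.23% and 0.643% of all compared genes did. Bcl11a (the fetal globin repressor) had 13 and 21, Zfpm1 (the GATA1 cofactor FOG1) 10 and 20, Sox6 10 and 19, and Cbfa2t3 (the corepressor ETO2) 11 and 16. Gata1 had 2 and 3, Gata2 3 and 5, Klf1 1 and 1, Tal1 4 and 8, and Lmo2 (the bridging factor of the TAL1 complex) 3 and 10 (1.71). Hbp1 had 7 and 7 (0.570). The sort antigens held 22 and 38 peaks (0.984), with 6 and 12 for Kit, 7 and 10 for Cd9, 3 and 3 for Tfrc (CD71), 3 and 4 for Slamf1 (CD150), 1 and 4 for Cd24a, 2 and 4 for Ly6a (Sca1) and 0 and 1 for Prom1 (CD133). Kit RNA, the antigen of the sort with the most peaks, was present in every library, at 272, 338 and 306 CPM in BM and 253, 335 and 335 in stress.

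The genes that make haem and handle iron had the lowest ratios among lists with at least 20 peaks. The 16 haem synthesis genes held 31 BM and 38 stress peaks (0.699, 0.423 to 1.161) and the 16 iron genes 32 and 41 (0.730, 0.449 to 1.198), both intervals including 1. Alas2, the erythroid first enzyme of haem synthesis, had 2 and 3, Fech, which inserts the iron, 3 and 3, and Tspo 4 and 3. In the iron list Steap3 (the endosomal ferrireductase) and Aco1 (an iron-responsive RNA-binding protein) each had 5 and 5. No haem gene and 2 iron genes reached 10 peaks. Of the BM peaks of the haem genes 48.39% lay within 1 kb of a start site, and their 16 and 22 distal peaks alone gave 0.678 (0.340 to 1.382). The 22 red cell membrane genes held 48 and 86 (1.02), with 4 and 9 for Ank1 (ankyrin), 4 and 8 for Epb41 (protein 4.1), 6 and 9 for Gypc, and 3 and 9 for Car2 (carbonic anhydrase 2, 1.55).

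**Figure D3:**
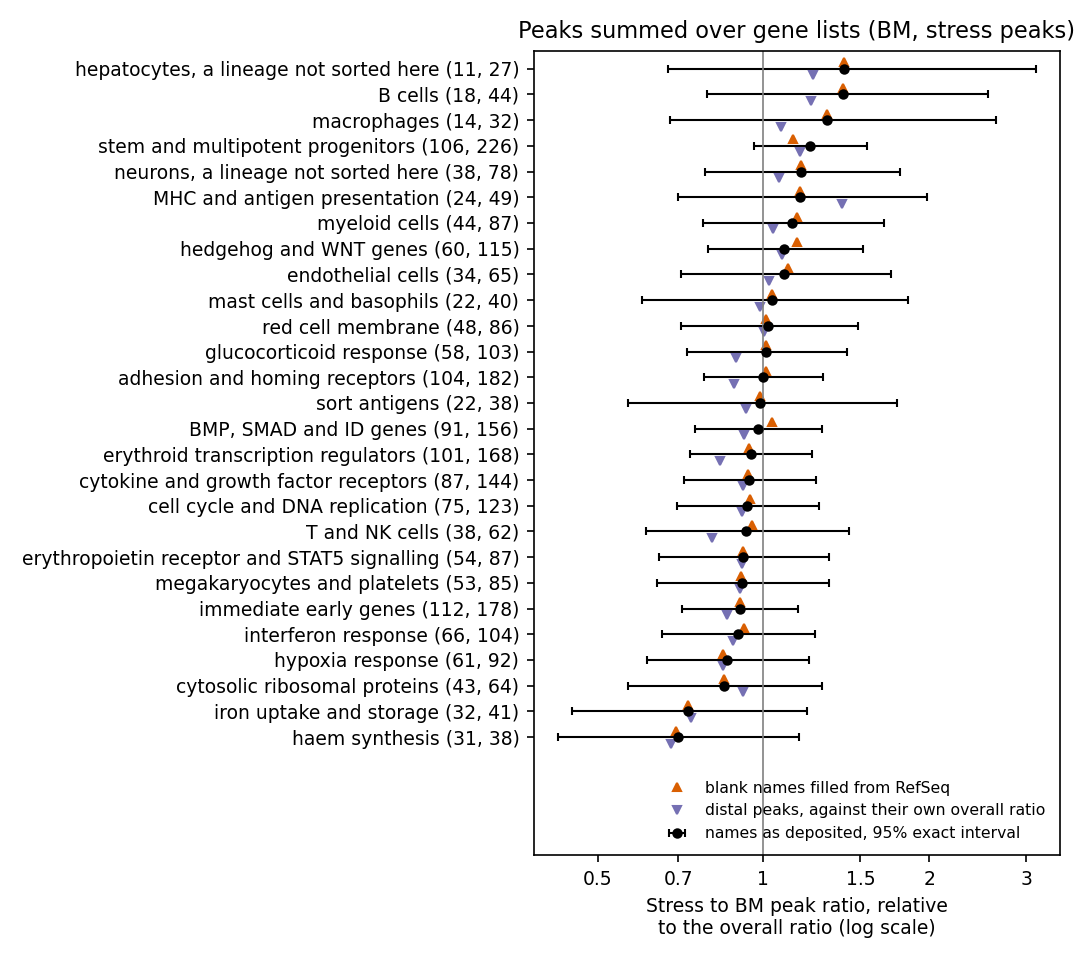
Relative peak ratio (x axis, log scale) of peaks summed over the gene lists with at least 20 peaks, with BM and stress counts in brackets; black points with bars are ratios by deposited names with exact 95% intervals, orange triangles ratios with empty names filled, purple triangles ratios of distal peaks. Ratios run from 0.699 (haem synthesis) to 1.40 (hepatocyte genes) and each interval crosses 1.

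Signalling lists of stress erythropoiesis also tracked the list lengths. The BMP, SMAD and ID genes held 91 and 156 peaks (0.977, 0.750 to 1.280), with 10 and 23 for Tgfbr2, 10 and 21 for Smad3, 7 and 13 for Smad1 (a BMP effector) and 4 and 1 for Tgfbr1. Acvr2a was the member below 0.5 by deposited name, with too few peaks to compare by nearest RefSeq start site. The hedgehog and WNT genes held 60 and 115 (1.09), with 5 and 16 for Tcf7l2, 5 and 8 for Gli2 and 5 and 7 for the hedgehog receptor Ptch1, and Lrp5 was the member above 2. The erythropoietin receptor and STAT5 list held 54 and 87 (0.918), with 2 and 2 for Epor, 8 and 13 for Socs1 and 7 and 11 for Pim1. The immediate early genes held 112 and 178 (0.906), with 14 and 19 for Jun and 4 and 10 for Fos. The 26 stem and multipotent progenitor genes held 106 and 226 (1.22, 0.961 to 1.545), which was 1.13 with names filled and included Etv6, Mecom (12 and 21) and Meis1 (10 and 20). Over all 28 lists, 129 of 516 genes had at least 10 peaks, of which 2 were above and 2 below, against 2.23% and 0.643% of all compared genes.

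Genes of other blood lineages and of unrelated tissues also had more stress than BM peaks, with intervals that included the overall ratio. The myeloid list held 44 and 87 peaks (1.13, 0.776 to 1.658), the macrophage list 14 and 32 (1.30), the B-cell list 18 and 44 (1.39), and the T and NK list 38 and 62 (0.930). Of lineages not sorted here, the neuronal list held 38 and 78 (1.17, 0.784 to 1.772) and the hepatocyte list 11 and 27 (1.40, 0.672 to 3.125). The RNA of myeloid markers was lower in stress, with 13 of 22 measured genes lower at unadjusted p below 0.05 in edgeR (6.01% of all genes were), 0 higher, and a median log2 fold change of -2.30. Summed over the 26 genes, myeloid RNA ranged from 384 to 960 RPKM in the BM libraries and from 244 to 369 in the stress libraries, with Lyz1 at 0 in every library. The 15 macrophage markers summed to 15.3 to 46.5 RPKM in BM and 3.75 to 7.93 in stress, with Marco and Timd4 at 0. Hepatocyte markers summed to at most 0.624 RPKM in any library, and 12 of 15 were at 0 in all of them. The part that other cells played in the peak lists was not tested.

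Chromosomes differed little in their stress to BM ratio. The relative ratio of the 19 autosomes ran from 0.955 on chromosome 7 to 1.03 on chromosome 14, and the interval included 1 for each of them. The X chromosome, which has 5.759 BM and 9.577 stress peaks per Mb, held 985 and 1638 peaks, a relative ratio of 0.948 (0.875 to 1.027), and 0.967 when expected numbers followed the annotation classes of its peaks. The Y chromosome held 12 and 24 peaks. Distal peaks alone gave 0.940 to 1.09 over the autosomes, and promoter peaks 0.970 to 1.04.

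**Figure D4:**
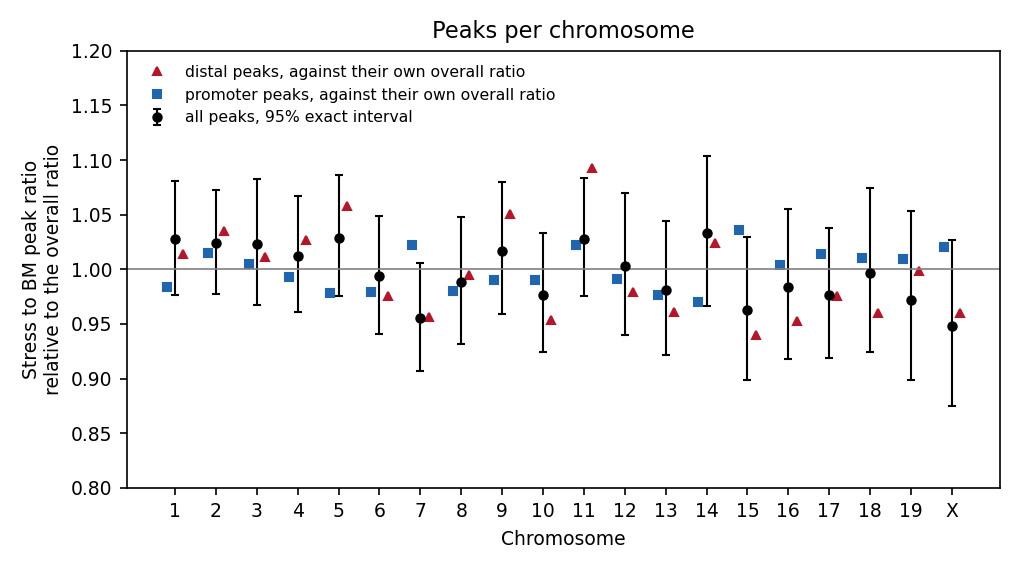
Stress to BM peak ratio relative to the overall ratio (y axis) for each autosome and the X chromosome (x axis), for all peaks (black, exact 95% intervals), distal peaks (red) and peaks within 1 kb of a start site (blue). All black points lie between 0.948 (X) and 1.03, with every interval crossing 1.

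The kind of region separated the lists more than the chromosome did. Peaks within 1 kb of a start site went from 11692 in BM to 14131 in stress, 1.21 times as many and a stress share of 54.72% (54.11 to 55.33%), and distal peaks from 23450 to 47530, 2.03 times as many and 66.96% (66.62 to 67.31%). Peaks annotated to CpG islands had a relative ratio of 0.688 (0.649 to 0.729). Repeat classes differed. Long terminal repeats went from 1563 to 3744 peaks (1.37, 1.287 to 1.449) and short interspersed elements from 824 to 2217 (1.53, 1.415 to 1.663), both above the distal value of 1.16. Long interspersed elements (733 and 1540, 1.197, 1.096 to 1.309), simple repeats (358 and 650, 1.035, 0.908 to 1.181) and satellites (43 and 89, 1.18, 0.811 to 1.739) had intervals that included it, and ribosomal RNA repeats were lower (59 and 73, 0.705, 0.494 to 1.011). Genes whose mean RPKM was under 1 in both populations had a relative ratio of 1.11 (1.089 to 1.139) over 11727 and 22914 peaks, and genes of 10 RPKM or more in the higher population 0.927 (0.9045 to 0.9496). For distal peaks against their own ratio these were 1.02 (0.990 to 1.041) and 0.986 (0.956 to 1.017).

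RNA-seq counts of the same populations, which the peak counts did not use, gave few called genes in edgeR, and none of those called by peaks. The BM libraries were uneven, with 5.81, 1.53 and 15.3% of genes at 0 counts in replicates 1, 2 and 3. In the stress libraries these shares were 0.42 to 0.74%. Of 10702 genes edgeR's quasi-likelihood test called 12 at an adjusted p below 0.05 (0.112%), 1 higher and 11 lower in stress (0 to 27 with 1 library left out, and 0 without stress replicate 2 or 3), and 1053 at an unadjusted p below 0.05 (9.84%). Of the 52 genes above the ratio 25 had an RNA count row, 0 were called, 3 were higher (3.83% of all genes were) and 2 lower (6.01%) at an unadjusted p below 0.05, and their median log2 fold change was 0.21. Of the 15 below, 9 had a row, 0 were called and 0 passed unadjusted in either direction, with a median of -0.24. For the genes between the thresholds the median was -0.08. DESeq2, run as another tool, called 355 of 10540 genes in all (3.37%), among them 3 of 24 genes above (Epha2, Gnb2l1 and Nhsl2) and 0 of 9 below. A local dispersion trend, which called 6.50% of all genes, called 4 of the 24 and 0 of the 9. With a mean trend, which called 5.49% of all genes, these were Epha2, Nhsl2 and Rxra above and Man1a below. The groups of libraries did not overlap for 11 of the 25 and 2 of the 9 (21.9% of all genes). Spearman's rank correlation between relative peak ratio and RNA log2 fold change was 0.018 across 1606 genes, given as a description, since genes share the libraries and the peak lists.

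**Figure D5:**
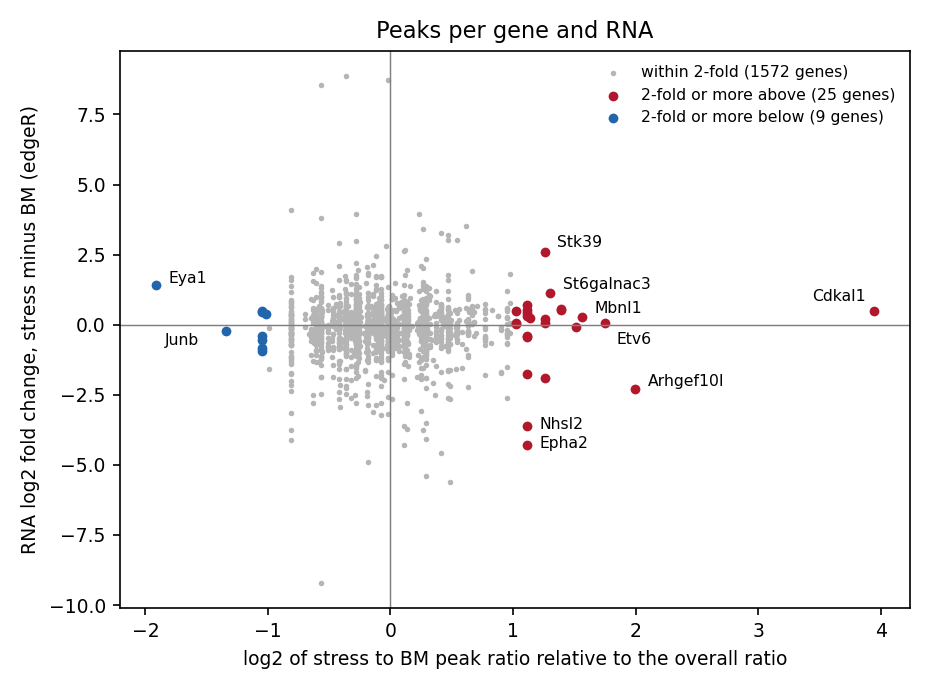
RNA log2 fold change in edgeR (y axis, stress minus BM) against log2 of the relative peak ratio (x axis) for the 1606 compared genes with an RNA count row; red and blue points are the 25 genes above and the 9 genes below the 2-fold thresholds. Red points lie on either side of 0, from Stk39 at 2.61 to Epha2 at -4.29. Stk39 averaged 1.545 CPM in BM and Epha2 0.733 CPM in stress, both near 0.

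Spred1 RNA was 114, 109 and 95.02 CPM in the BM libraries and 170, 126 and 168 in the stress libraries. The stress libraries were all higher, with a log2 fold change of 0.54 (SE 0.21, unadjusted p = 0.0299, adjusted p = 0.437 in edgeR). Gnb2l1, the ribosome-associated scaffold RACK1, had 2 BM and 11 stress peaks and 717, 999 and 788 against 1194, 1253 and 1135 CPM (0.52, edgeR adjusted p = 0.329). The 2 BM and 11 stress peaks of Gnb2l1 all lay outside protein-coding genes. Neither gene passed after adjustment in edgeR, and DESeq2 called Gnb2l1 with its parametric trend.

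Genes with more peaks and lower RNA were also found. Arhgef10l was at 15.7, 15.3 and 10.7 CPM in BM and 2.80, 5.17 and 0.481 in stress (log2 fold change -2.30, edgeR adjusted p = 0.598). Epha2 was at 16.3, 15.02 and 12.6 against 0.985, 0.0939 and 1.12 CPM (-4.29, edgeR adjusted p = 0.358), and Nhsl2, on the X chromosome, at 74.7, 41.7 and 96.3 against 2.65, 5.17 and 9.61 (-3.61, edgeR adjusted p = 0.135). By nearest RefSeq start site Nhsl2 had 2 BM and 4 stress peaks and Epha2 1 and 6, too few to compare. Arhgef10l kept 1 and 10. In each of these 3 genes every stress library was below every BM library. St6galnac3 was low and scattered, at 6.51, 0 and 0 against 3.56, 6.198 and 4.57 CPM. Lrp5 was at 41.3, 106 and 31.3 against 88.2, 63.2 and 87.5 CPM, with overlapping groups. Eya1, below the ratio by peaks, was at 4.01, 4.38 and 21.6 CPM in BM and 23.5, 32.9 and 22.8 in stress (1.40, edgeR adjusted p = 0.667). Junb was at 158, 223 and 139 against 164, 146 and 132 CPM, with overlapping groups.

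The 12 genes called by RNA mostly had few peaks and similar numbers in both lists. Ctse (cathepsin E), the gene that rose, was at 18.0, 10.9 and 14.1 CPM in BM and 99.9, 103 and 105 in stress (log2 fold change 2.84, SE 0.33, edgeR adjusted p = 0.0325), with 2 peaks in each list. Among those that fell, Itsn1 (an endocytic scaffold) had 5 and 5, Tifab 4 and 4, Csf1r (the macrophage growth factor receptor) 1 and 2, Lgals1 2 and 3, Neat1 2 and 3, Unc93b1 (a Toll-like receptor chaperone) 1 and 4, and Nol4l 11 and 23. Nol4l and Itsn1 were the 2 of the 12 with at least 10 peaks, and Nol4l stood at 1.16 by peaks and at -1.87 on the log2 scale by RNA (edgeR adjusted p = 0.0237). The small nucleolar RNA gene Snord15b had 0 and 1 peaks, and Snord15a none.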

How the data were processed

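The authors' 2 deposited peak lists, 1 per population for 3 ATAC-seq libraries each, were annotated with HOMER on mm10, per the file headers. They hold a peak score from 415 to 1000 per interval, as deposited, plus coordinates and the distance to the nearest start site. The peak caller, the reproducibility threshold and the read depth are not given in the sources used here. HOMER 4.8, Bowtie2 2.3.4.2, DESeq2 and STAR 2.6.0b-1 appear with no role per the submitters' processing notes. The authors deposited RNA-seq counts per gene (HOMER, exons, no adjustment, genes averaging 50 counts) and RPKM values (the same counter with normalization to length and depth), per the file headers. RNA libraries held 6758871 to 9463498 counts in BM and 10555143 to 12926718 in stress. The RPKM file has 1 BM column without a replicate number, taken as a library of the BM group.

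Intervals listed in several entries were merged by chromosome, start and end (Python 3.11.15, pandas 2.3.3, scipy 1.17.1). Peaks were counted per gene name, a relative ratio was computed with a pseudocount of 0.5 for genes with at least 10 peaks over both lists, and 2-fold was the threshold on either side. Overlaps needed 1 base (bedtools 2.31.1). With 1 merged list per population there is no test on peak counts. RNA was tested with edgeR 4.0.16 in R 4.3.3 (quasi-likelihood F test, TMM, 3 against 3 libraries, Benjamini-Hochberg adjustment over 10702 genes, threshold 0.05), checked on simulated counts. DESeq2 1.42.0 was an alternative. Its parametric dispersion trend converged or failed with the number of processor threads, so that trend was fitted by direct maximisation of the same model, and its local and mean trends were run separately. Read sequences were not used; printed sequences were read from the reference genome. Some genes and sequences are not reported here.

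Members, gene lists and tests were chosen with earlier results of these data known. Genes were named by these rules, leaving out gene models with only a clone or predicted name: the 12 highest and 12 lowest relative ratios, the 10 with the most peaks in each list, members of the gene lists with the most peaks or called, the sort antigens and the genes called in the RNA. Genes with at least 10 peaks in 1 list and none in the other were also named. Other genes, among them Gm25018, Gm572, F13a1, Hrh1, Prkcb, Ggta1, Prdx6, the array genes, the host genes, and called genes beyond the 12, were chosen after their values were seen.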

Additional observations from a re-analysis of the deposited data

How the results depend on the processing

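The 52 genes above and 15 below the overall ratio became 421 and 276 when every deposited entry was counted without merging, 13 and 9 when the stress list was shortened to the BM length by score, 318 and 175 with a minimum of 5 peaks, 4 and 0 with a minimum of 20, and 0 and 0 for promoter peaks, where 1 gene reached 10 peaks. A pseudocount of 1 gave 27 above. The count below became 8 at a score of at least 540, 65 for distal peaks and 3 for covered bases. All other settings left the counts within 1.5 times, but fewer of the same genes stayed: 20 of the 52 at a score of at least 540 and 3 at 830, where 5 and 0 of the 15 remained. In the shortened stress list 7 of the 52 and 1 of the 15 remained, with every entry 41 and 4, and for distal peaks 29 and 5. The X chromosome ratio of 0.948 stayed within its interval, from 0.912 to 1.02.

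The direction of single genes turned in these cases, and the cause was not tested. With peaks scoring at least 830, Barhl2 was at 0.5821, Fabp12 1.247, Fam114a2 and Plcg1 0.9148, Kcnh2 1.081, Mrpl44 1.525 and Tmem131 0.7484. Within 100 kb of a start site Bmper was at 0.9052 and Snx11 at 0.8065. Adam6a was at 0.7143 in the shortened stress list, Ism1 at 0.9898 with every entry, and Cdkal1 at 0.8699 with names filled or by nearest start site.

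For RNA, edgeR's 12 calls became 0 to 27 when 1 library was left out: 4, 5 and 27 without BM replicate 1, 2 and 3, and 7, 0 and 0 without stress replicate 1, 2 and 3. At an unadjusted p below 0.05 the last 2 gave 481 and 489 genes. DESeq2 called 355 of 10540 genes with an adjusted p by its parametric dispersion trend, and 685 and 579 by a local and a mean trend, which were added after seeing the data. A replicate block gave 3 calls. The labels do not say whether same-numbered libraries were collected together. After centring on group means these had correlations of -0.02, -0.03 and -0.03, which cannot settle whether they are paired. The median RNA log2 fold change of genes above minus genes below was 0.444, from 0.263 to 0.598 with 1 library left out, but -0.074 for peaks within 100 kb and -0.183 for covered bases, and the SD of this difference between libraries was 0.4851. ATAC replicates could not be left out, since the lists are merged.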
